A study of Drosophila melanogaster with 12 samples.

Results

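The nuclear genes for mitochondrial ribosomal proteins were followed across 12 RNA-seq libraries of Drosophila melanogaster S2 cells. Members were all genes whose FlyBase symbol starts with mRpL, for the large subunit, or mRpS, for the small subunit. The annotation holds 73 such genes, and 71 of them were matched in the deposited files, 47 of the large and 24 of the small subunit, among 17023 gene identifiers in all. mRpS5 and mRpS34 were not matched and were not analysed here. Of the 71 members, 70 passed the filter on low counts and were among the 9024 genes tested.

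The mitochondrial ribosome translates the few mRNAs of the mitochondrial genome, which encode membrane subunits of the respiratory chain and of ATP synthase. Its RNAs are made in the mitochondrion, whereas its proteins are encoded in the nucleus, translated on cytosolic ribosomes and imported. Polysome association of the transcripts measured here therefore concerns their translation in the cytosol, not translation inside mitochondria. In the mammalian mitochondrial ribosome the counterparts of mRpS30 and mRpS18A sit in the large subunit. Both were counted by their symbols, with the small subunit.

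S2 cells are an embryo-derived line with features of hemocytes, the macrophage-like blood cells of the fly. Every group came from these cells and received 1 µg of dsRNA, either against GFP, which served as control, or against porthos (CG9253), which encodes a DEAD-box RNA helicase. Cells were passaged 48 h after transfection and collected 3 days later, after 3 min in cycloheximide at 100 µg/ml, an inhibitor that keeps ribosomes on mRNA. Total lysate gave the input libraries, and fractions of a 10 to 50% sucrose gradient that hold mRNAs with several ribosomes gave the polysome libraries. The 4 groups, each of 3 libraries, are called GFP inputs, porthos inputs, GFP polysomes and porthos polysomes below, after the dsRNA and the fraction. RNA was extracted with TRIzol from inputs and with phenol and chloroform from polysome fractions, so the extraction and the fraction cannot be told apart. The numbers of the replicates are not tied to separate cultures in the labels, and p-values then measure the spread between these libraries, which may be technical.

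Depth was 7559406 to 11918941 counts per library. The level of porthos itself (pths) was 220.2, 226 and 222 CPM (counts scaled by TMM to a shared library size) in the GFP inputs and 106, 108 and 95.8 CPM in the porthos inputs. On polysomes it was 326, 321 and 314 CPM and 113, 141 and 93.7 CPM. The groups did not overlap in either fraction, and the log2 change was -1.11 ± 0.10 (SE) in input and -1.46 ± 0.10 on polysomes. Polysome porthos replicate 3 stood apart on a principal component that held 15.7% of the variance, at -41.7 against -3.07 to 12.8 in the other 11 libraries. It also listed 10377 genes with a count, against 11485 to 11864. Polysome GFP replicate 1 had the highest sum of members, 4165 CPM against 3637 and 3549 CPM in the other GFP polysome libraries. For each comparison the count of members called, their median change or both are also given without these libraries. Correlations with exon length, splits by length, counts past a fold threshold and counts of smaller distances between fractions are given with all libraries only. The sum of the hemocyte markers was 1610 to 1984 CPM in input and 1098 to 1433 CPM on polysomes. Of 10 tested hemocyte markers, 3 were called higher with porthos dsRNA in input and 4 on polysomes, and 0 lower in both. Of all genes tested, 0.997% were called higher in input and 11.2% on polysomes. The neuron markers summed to 137 to 164 CPM in input and 79.7 to 116 CPM on polysomes, and 0 of the 3 tested were called between dsRNA treatments. Sums of muscle and fat body markers were 7.08 to 10.6 CPM and 6.26 to 9.18 CPM in input, with Lsp1alpha, a storage protein of the fat body, at 0 in every library. The 3 germline markers found, osk, bam and aub, summed to 218 to 225 CPM in the GFP inputs and 249 to 257 CPM in the porthos inputs, and on polysomes to 98.96 to 112 CPM and 132 to 183 CPM. What part they have in the results below was not tested.

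Per kilobase of exon, the levels of the 70 tested mitoribosomal protein transcripts ran from 8.63 to 150.3 CPM, averaged over the 4 groups. The median of all 71 members was 35.7 CPM per kilobase in the GFP inputs and 35.6 in the porthos inputs. On polysomes the medians were 55.0 and 54.4. Small subunit members had a median of 51.6 CPM per kilobase over all 4 groups and large subunit members 41.7. Together the members took 0.233 to 0.251% of the counts of an input library and 0.354 to 0.433% of those of a polysome library.

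The highest level per kilobase was that of mRpL14 (FBgn0040389, dm6 chrX:2343997-2344649), at 150.3 CPM per kilobase. It encodes the homologue of bacterial L14, which lies at the face between the subunits. mRpS7, a protein of the small subunit head, followed with 139.8, then mRpL23, which lies at the exit of the peptide tunnel, with 129. mRpS11 of the platform had 103 and mRpL55 97.4. At the other end were mRpS24 with 8.63, mRpS21 with 18.5, mRpL38 with 18.8 and mRpL43 with 21.4. Exons of TBC1d7 on the opposite strand cover 55.3% of the exon length of mRpS24, and 48.0% of that of mRpS21 is covered in the same way by CG8870. With all counts of a gene set over only the exon length that no other gene shares, mRpS24 had 19.3 CPM per kilobase. It then ranked 69 of 70, just above mRpL38 with 18.8. That scale takes shared bases to have given no counts, which is not known here. On that scale mRpS21 had 35.5 CPM and ranked 54.

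**Figure D1:**
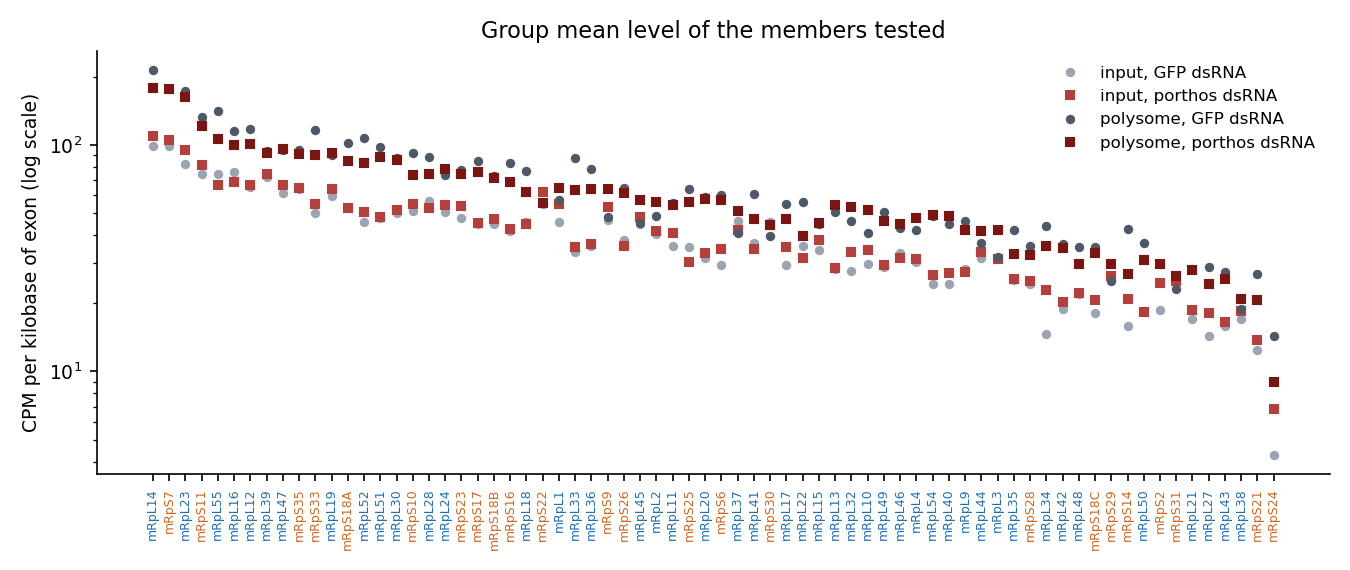
Level of each of the 70 tested members in CPM per kilobase of exon (log scale), as the mean of 3 libraries per group, ordered by the mean over the 4 groups. Symbols of large subunit members are in blue and of small subunit members in orange. The polysome means (dark) lie above the input means (light) for most members, and the highest and lowest are mRpL14 at 150.3 and mRpS24 at 8.63 over all groups.

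mRpL53 was listed at 0 counts in all 12 libraries, where a floor of 3 counts allows 0.262 to 0.383 CPM per library. Its whole exon length of 829 bases is shared on the same strand with CG33155, which had group means of 0.0756 to 0.284 CPM, so the listing does not show that the transcript was absent. Overlap was common in this family: 39 of the 70 tested members share exon bases with a tested gene. In 38 of them that gene lies on the opposite strand, and mRpL13 and mRpS14 share bases with a gene on the same strand, mRpS14 with both kinds. The strand setting of the counting is not given in the sources used here, so the counts of these members are uncertain. The counts of calls were also taken in the 31 members free of such overlap, and are given with the results where members were called. Overlap with genes that were not tested was left aside, as at mRpL17, with 23.6% of its exon length covered on the opposite strand.

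Polysome against input in control cells asked which transcripts were held by several ribosomes more than the average mRNA. Mitoribosomal protein transcripts were enriched on polysomes in nearly the whole family. Of the 70 members, 60 were higher on polysomes and 1 was lower (edgeR's quasi-likelihood test, Benjamini-Hochberg adjusted p under 0.05), while 26.5% of all genes tested were called higher and 28.9% lower. The median log2 change of the members was 0.74, against 0.01 over all genes. The 3 polysome libraries lay wholly above the 3 input libraries for 60 members, which held for 31.3% of all genes, and wholly below for 1, which held for 33.1%. In all, 13 of the 70 members were at least 2-fold higher, as were 334 of the 9024 genes tested. Of the 31 members that share no exon with a tested gene, 26 were higher and 1 was lower.

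The largest increase was that of mRpS24, the small subunit homologue of bacterial S3, at 3.02, 2.69 and 2.01 CPM in input and 10.5, 8.62 and 6.78 CPM on polysomes, from 19 to 28 and from 55 to 92 counts. Its groups did not overlap, with a log2 change of 1.75 ± 0.29 (adjusted p = 1.4e-05). mRpL34, a short basic protein of the large subunit, had 4.53, 5.28 and 4.56 CPM in input and 17.7, 11.3 and 14.2 CPM on polysomes. Every polysome library was above every input library, and the log2 change was 1.58 ± 0.21 (adjusted p = 5.4e-07). mRpS14, of the small subunit head, had 13.7, 12.6 and 11.6 CPM and 42.0, 35.2 and 24.6 CPM, again without overlap, and rose by 1.43 ± 0.16 (adjusted p = 5.4e-08). mRpL33 and mRpL52 rose by 1.37 ± 0.16 and 1.24 ± 0.11 (adjusted p = 6.4e-08 and 1.8e-09).

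The member that fell was mRpS30, the longest of the family with 2078 bases of exon. It had 95.3, 98.1 and 90.7 CPM in input and 84.2, 80.4 and 81.7 CPM on polysomes. The polysome libraries lay below all inputs, and the log2 change was -0.21 ± 0.07 (adjusted p = 0.015). That call was lost with library size scaling, at a log2 change of -0.08, and in the fit without the filter, at -0.19. It was also lost without GFP input replicate 1 or 2, at -0.17 and -0.18, and without GFP polysome replicate 2 or 3, at -0.16 and -0.16. At mRpL37, mRpS31 and mRpS29, the last a GTP-binding protein of the small subunit, the change was -0.17 ± 0.10, -0.10 ± 0.11 and -0.03 ± 0.09 and did not pass the test. With library size scaling the last 2 were above 0, at 0.03 and 0.10. mRpL45, whose mammalian counterpart attaches the ribosome to the inner membrane, was at 0.01 ± 0.09.

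Enrichment followed transcript length. Members are short genes, with a median summed exon length of 783 bases and a range of 327 to 2078, against 2040 bases for all genes tested. Across the 70 members the Spearman correlation of exon length with the change from input to polysome was -0.82, with -0.81 among 46 large and -0.83 among 24 small subunit members. Across 8818 tested genes with a known length it was -0.66. These are correlations across genes that share the same libraries and are given as descriptions. All 34 members shorter than 783 bases were called higher, with a median of 0.94. Of the 36 members of 783 bases or more, 26 were called higher and 1 lower, with a median of 0.55. All genes shorter than 783 bases had a median of 0.78, and 62.7% of these 818 genes were called higher. The 8000 genes of 783 bases or more had a median of -0.04, with 23.1% called higher and 31.2% lower. For the 4446 genes within the range of length of the members the median was 0.34, with 46.0% called higher and 7.22% lower.

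The trend with length over all genes was then fitted in each library and removed by an offset in the fit. With it removed, 15 members were called higher and 8 lower, with a median log2 change of 0.13. Neither here nor below is the share of all genes called in an alternative fit given, be it without the length trend or without libraries. Whether the members stand out in those fits cannot be read from these counts. With library size in place of TMM scaling, the median of all genes shifted to 0.14 and that of the members to 0.87, with 61 higher and 0 lower. Without both polysome libraries that stand apart 60 members were higher and 1 lower, at a median of 0.67.

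**Figure D2:**
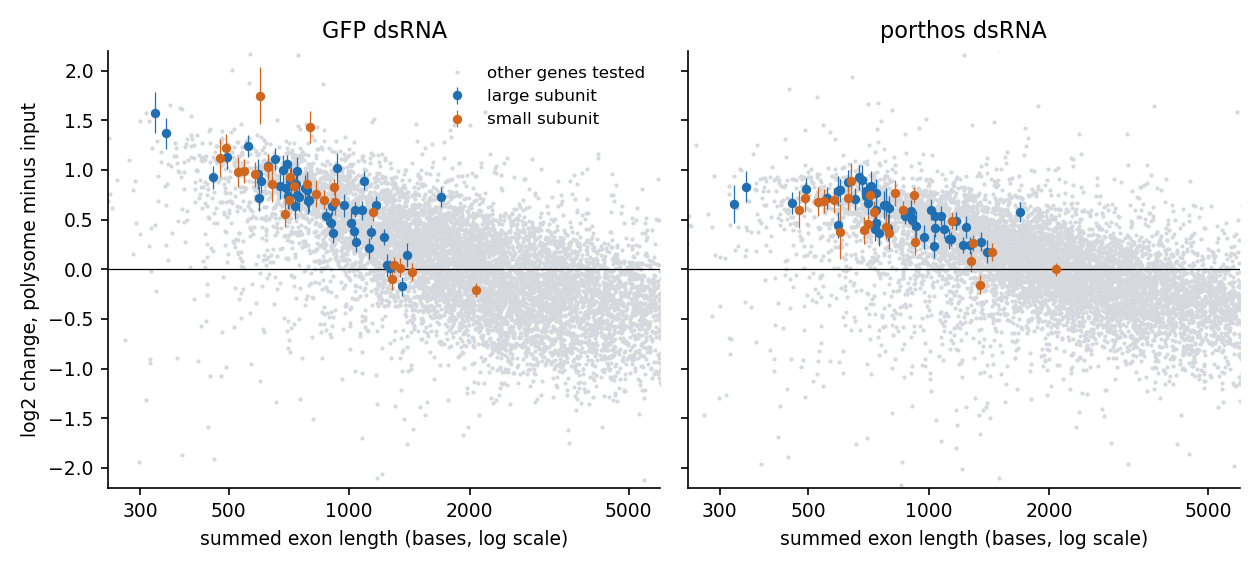
Log2 change from input to polysome against summed exon length (log scale) with GFP dsRNA (left) and porthos dsRNA (right). Each coloured point is a member with its standard error, grey points are the other genes tested that lie within the axes, and members fall from the upper left to the lower right in both panels, with Spearman correlations of -0.82 and -0.72.

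The same comparison after porthos dsRNA gave a similar count of members and smaller changes. With porthos dsRNA 61 of 70 members were higher on polysomes and 0 lower, where 23.7% of all genes were called higher and 24.1% lower. Before adjustment 63 members had p under 0.05, none of these in the lower direction. Of the 9024 genes tested 4826 did, 2422 higher and 2404 lower. DESeq2 and limma voom also called 61 higher and 0 lower. The median log2 change was 0.56 and 0 members were at least 2-fold higher, against 13 with GFP dsRNA. Over all 9024 genes tested that count was 89 with porthos and 334 with GFP dsRNA. Among 72 nuclear subunits of oxidative phosphorylation it was 2 and 36. The counts at this fold are not given without the polysome libraries that stand apart. For 57 members the polysome libraries were all above the inputs, which held for 25.6% of all genes. For 56 members the call was made with both dsRNAs. With porthos dsRNA 28 of the 31 members that share no exon with a tested gene were higher and 0 lower.

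The largest changes with porthos dsRNA were those of mRpL13, a large subunit protein that shares 35.2% of its exon length with CG10602, at 0.92 ± 0.12, of mRpL54 at 0.90 ± 0.15 and of mRpS25 at 0.89 ± 0.18. mRpL51 and mRpL40 followed with 0.88 ± 0.12 and 0.84 ± 0.14. At the low end mRpS22, mRpS30, mRpS31, mRpS29 and mRpL38 were at -0.16, -0.00, 0.08, 0.17 and 0.18 and did not pass the test. mRpS14 and mRpS24, among the strongest with GFP dsRNA, were at 0.37 ± 0.16 and 0.38 ± 0.28 here and also missed the threshold (adjusted p = 0.061 and 0.28).

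The distance between polysome and input was smaller with porthos than with GFP dsRNA in 54 of 70 members. The same held for 5699 of all genes tested, or 63.2%. How far both counts rest on the polysome libraries that stand apart was not tested. The correlation of the change with exon length was -0.72 across the members and -0.63 across all genes. With the length trend removed, 7 members were higher and 1 lower after porthos dsRNA, with a median of 0.09. Without the libraries that stand apart 63 were higher and 0 lower, at a median of 0.58.

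In input RNA, porthos dsRNA changed 0 of 70 mitoribosomal protein transcripts past the threshold, where 1.72% of all genes tested passed it, 0.997% higher and 0.72% lower. Before adjustment 9 members had p under 0.05, and these 9 were higher with porthos dsRNA. Over all genes 1250 had an unadjusted p under 0.05, of which 655 were higher. DESeq2 and limma voom also called 0 members, with 8 and 7 at an unadjusted p under 0.05. The median member was higher by 0.08 on the log2 scale, with 56 of 70 above 0, against a median of 0.00 and 51.0% above 0 for all genes. The 3 porthos libraries lay wholly above the 3 GFP libraries for 16 members and wholly below for 1, mRpL55, which held for 12.9% and 12% of all genes. In bulk RNA, more of a transcript per cell and more cells of a kind that expresses it cannot be told apart.

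The smallest p in input was that of mRpL1, which forms the mobile stalk beside the exit site of tRNA. It had 53.9, 60.7 and 52.0 CPM with GFP dsRNA and 67.6, 65.5 and 67.3 CPM with porthos dsRNA. The groups did not overlap, and the log2 change was 0.27 ± 0.08 (adjusted p = 0.10). mRpS2, a protein of the back of the small subunit, had 19.8, 16.3 and 15.7 CPM and 22.3, 20.2 and 25.8 CPM. Its porthos libraries were all higher, with a change of 0.40 ± 0.13 (adjusted p = 0.13). mRpL34, mRpL17 and mRpS14 were at 0.63 ± 0.22, 0.26 ± 0.10 and 0.40 ± 0.17 and did not pass. In the other direction the smallest p-values belonged to mRpL16, mRpL22, mRpL55, mRpL37 and mRpS25, at -0.15, -0.18, -0.16, -0.13 and -0.23, none past the threshold. With a fit of the 6 input libraries alone, mRpL1 and mRpS2 passed, at adjusted p of 0.017 and 0.043.

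On polysomes, porthos dsRNA moved single members in both directions: 5 were higher and 6 lower, where 18.4% of all genes were called, 11.2% higher and 7.14% lower. The members' share called was 7.14% higher and 8.57% lower. Large subunit members made up 4 of those higher and 5 of those lower. The median change of the 70 members was -0.08, with 24 (34.3%) above 0, against 49.4% of all genes. Before adjustment 8 were higher and 20 lower at p under 0.05, against 1558 and 1308 of the 9024 genes tested. The groups did not overlap for 7 members that were higher and 12 that were lower, against 16.2% and 13.4% of all genes. Among the 31 members that share no exon with a tested gene, 3 were higher and 4 lower.

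Of the members that rose on polysomes, mRpS9 (dm6 chr3R:7889277-7902667), whose bacterial homologue contacts the tRNA in the peptidyl site, had 58.9, 60.4 and 68.3 CPM with GFP dsRNA and 83.9, 77.0 and 88.4 CPM with porthos dsRNA. The porthos libraries were all above the GFP libraries, and the change was 0.41 ± 0.08 (adjusted p = 0.0013). It was called under all 22 alternatives tried. It shares 25.1% of its exon length with ArgRS-m on the opposite strand, which changed by 0.20 (adjusted p = 0.28). mRpL45 (dm6 chr3R:22618492-22619826) had 52.5, 56.5 and 63.7 CPM and 76.4, 66.9 and 73.8 CPM. Its groups did not overlap, with a change of 0.33 ± 0.09 (adjusted p = 0.0086).

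mRpL3 (dm6 chrX:15761248-15762663), which reaches close to the peptidyl transferase centre, had 38.0, 36.6 and 45.5 CPM with GFP dsRNA and 54.3, 45.5 and 57.3 CPM with porthos dsRNA. The lowest porthos library was just above the highest GFP library, and the change was 0.39 ± 0.11 (adjusted p = 0.020). mRpL37 (dm6 chr3R:10782563-10784092), a protein without a bacterial counterpart, had 51.9, 58.9 and 55.7 CPM and 64.1, 64.3 and 79.8 CPM, without overlap, and a change of 0.32 ± 0.10 (adjusted p = 0.024). mRpL10 (dm6 chr2L:203779-204782), which anchors the stalk that recruits translation factors, had 39.8, 35.3 and 36.2 CPM and 47.8, 39.3 and 53.4 CPM. Here porthos replicate 2 was below GFP replicate 1, so the groups overlapped, and the change was 0.34 ± 0.11 (adjusted p = 0.031). In input none of these 5 passed the test, and their changes there were 0.19, 0.10, 0.00, -0.13 and 0.21 in the same order.

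Of the members that fell on polysomes, mRpS14 (dm6 chrX:19479382-19480238) had 42.0, 35.2 and 24.6 CPM with GFP dsRNA and 20.9, 24.4 and 19.3 CPM with porthos dsRNA. The GFP libraries were spread widely, the lowest of them just above the highest porthos library, and the change was -0.66 ± 0.15 (adjusted p = 0.0042). It shares 35.8% of its exon length with other genes, mostly Naa15-16 on the opposite strand, which changed by -0.00. mRpL22 (dm6 chrX:16783933-16785092), which lines the peptide exit tunnel, had 55.7, 53.7 and 53.5 CPM and 36.4, 47.4 and 31.6 CPM. Here the GFP libraries were tight and the porthos libraries wide, all of them lower, with a change of -0.50 ± 0.11 (adjusted p = 0.0042).

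mRpL55 (dm6 chr3R:19094394-19094905), a protein found in mitochondrial ribosomes of animals, had 76.1, 60.6 and 57.3 CPM and 49.2, 55.0 and 40.9 CPM and changed by -0.42 ± 0.11 (adjusted p = 0.010). mRpL52 (dm6 chr2R:7673721-7674400) had 71.4, 56.9 and 52.4 CPM and 46.7, 49.7 and 43.6 CPM and changed by -0.37 ± 0.11 (adjusted p = 0.017). In both, GFP replicate 1 was well above the other GFP libraries and no porthos library reached a GFP library. mRpL33 (dm6 chrX:4321764-4322231), a homologue of bacterial L33, had 39.2, 26.5 and 26.0 CPM and 23.3, 21.3 and 21.7 CPM, without overlap, and changed by -0.47 ± 0.15 (adjusted p = 0.029). mRpL28 (dm6 chr2L:4973976-4975316) had 115.1, 97.5 and 98.2 CPM and 82.3, 96.7 and 81.9 CPM, with porthos replicate 2 just under the lowest GFP library, and changed by -0.25 ± 0.09 (adjusted p = 0.046). In input the changes of these 6 were 0.40, -0.18, -0.16, 0.15, 0.07 and -0.09, none past the threshold.

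**Figure D3:**
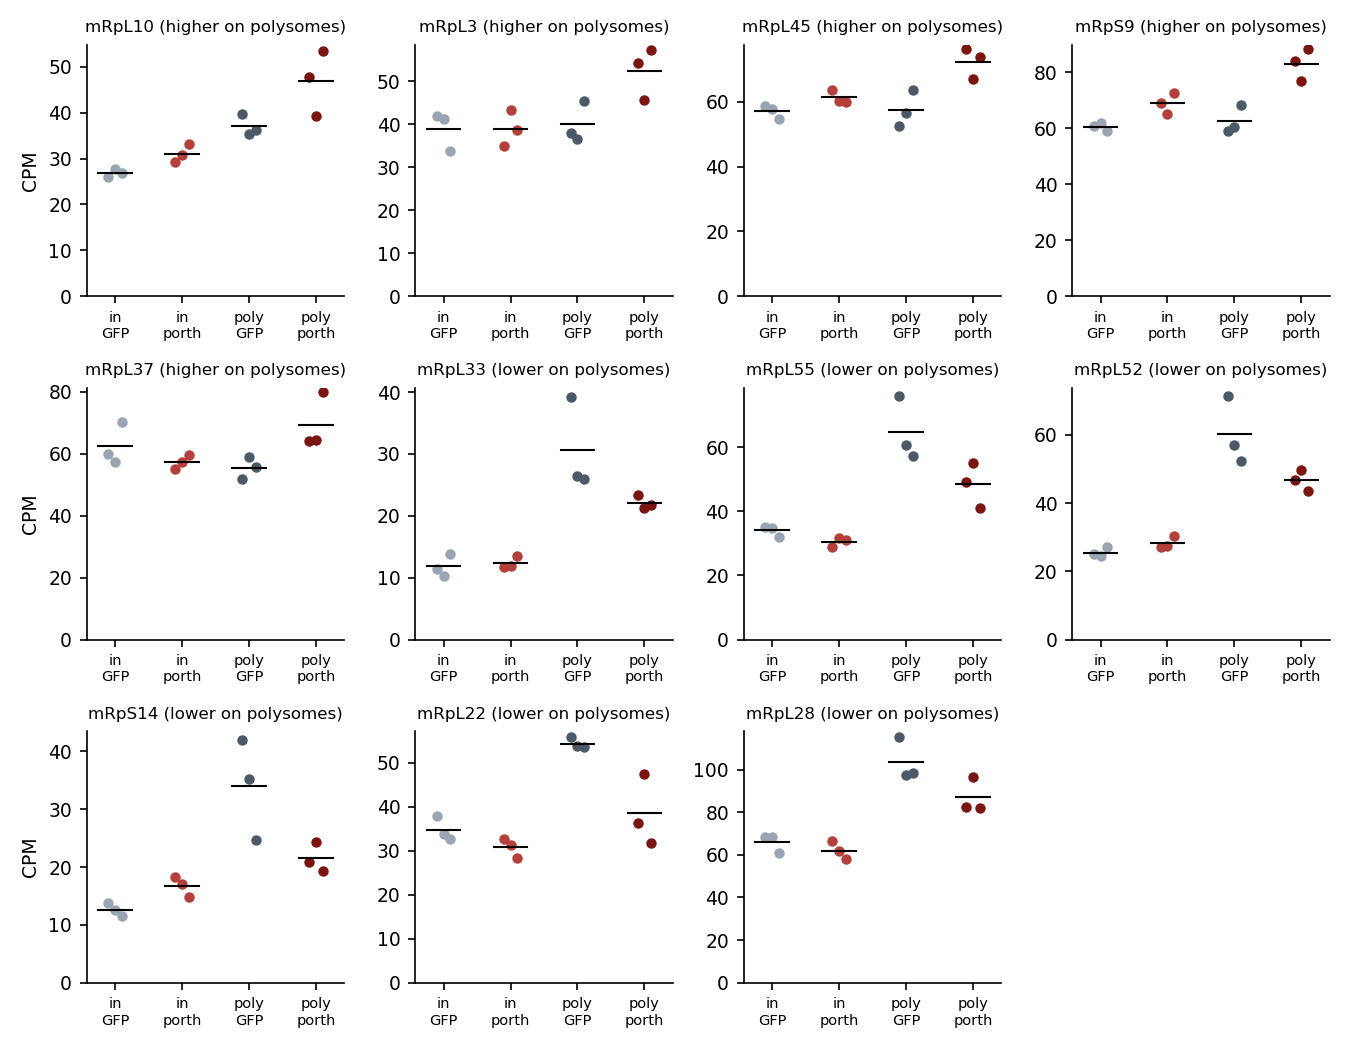
CPM of the 11 members called on polysomes in each of the 12 libraries, with a bar at each group's mean; each panel starts at 0. On polysomes the porthos and GFP points are apart for each of the 11 except mRpL10. In input they are apart as well for mRpS9, mRpL45, mRpL10, mRpS14 and mRpL52 (porthos higher) and for mRpL55 (porthos lower). Polysome GFP replicate 1 is the highest GFP point on polysomes for each of the 6 that fell.

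Most of the calls on polysomes rested on single libraries. Without polysome GFP replicate 1 the members called fell to 3, 2 higher and 1 lower, and the median change was 0.02. Without polysome porthos replicate 3 or replicate 1 there were 5 each, and without GFP replicate 3 or porthos replicate 2 there were 19 each. Without both libraries that stand apart, an alternative chosen after the data were seen, 3 members were higher and 0 lower, and 1 of these 3, mRpS9, was among the 11. With library size scaling the split was 4 higher and 13 lower.

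The direction on polysomes also followed length. The 5 members that rose have 903 to 1356 bases of exon, and the 6 that fell 349 to 1170. The Spearman correlation of exon length with the change was 0.62 across the 70 members, 0.52 in the large and 0.81 in the small subunit, against 0.23 across all genes with a known length. In input it was -0.07. Among the 34 members shorter than 783 bases 0 rose and 3 fell, with a median of -0.17, and 4 were above 0. Among the 36 longer members 5 rose and 3 fell, with a median of 0.01. All tested genes shorter than 783 bases had a median of -0.20, with 15.3% called lower and 0.856% higher. Those of 783 bases or more had a median of 0.01, with 6.34% called lower and 12.1% higher. With the length trend removed 8 members were higher and 2 lower, 7 of them among the 11, and the median was 0.03. mRpL55, mRpL52, mRpL33 and mRpL28 were then no longer called. The polysome libraries with GFP dsRNA enter both this comparison and the polysome against input comparison of control cells, so their patterns with length are not independent. How far the correlations and splits by length rest on the polysome libraries that stand apart was not tested.

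**Figure D4:**
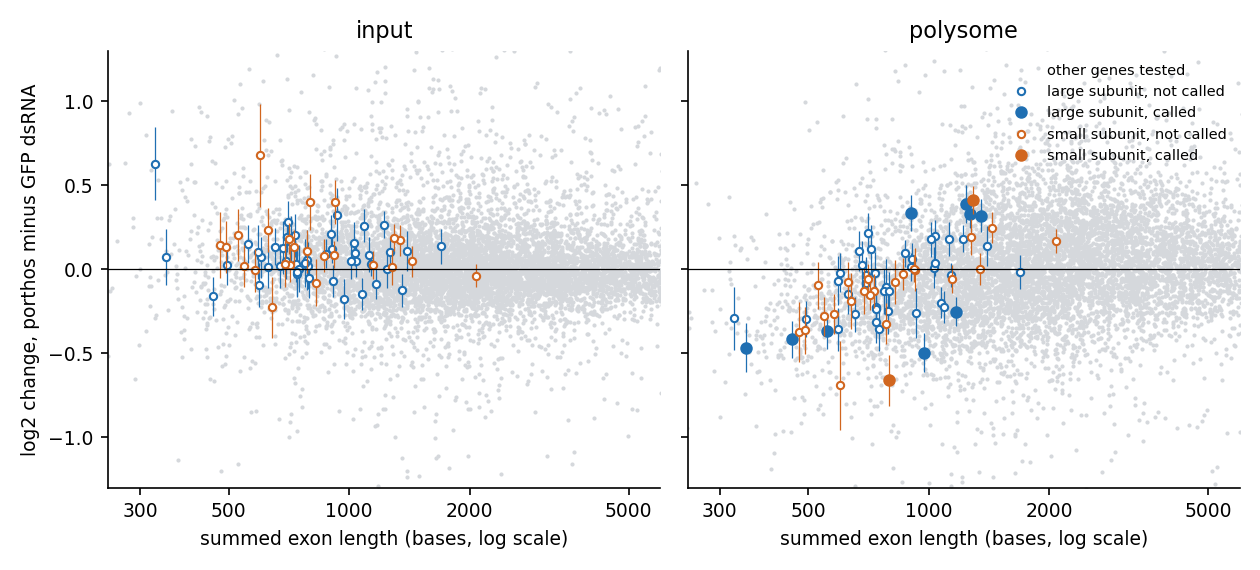
Log2 change with porthos against GFP dsRNA in input (left) and on polysomes (right), against summed exon length (log scale). Circles are members with their standard errors, filled where called, and grey points are the other genes tested that lie within the axes. In input 56 of the 70 members lie above 0, with members below 0 among both short and long genes, and on polysomes they run from below 0 at the short end to above 0 toward 1356 bases, with Spearman correlations of -0.07 and 0.62.

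The difference between the change on polysomes and the change in input, an interaction term often called translational efficiency, passed the threshold for 0 of 70 members, and for 0.0997% of all genes tested, 0.0776% higher and 0.0222% lower. Before adjustment 14 members had p under 0.05, 2 higher and 12 lower. Of the 9024 genes tested 1352 did, 867 higher and 485 lower. DESeq2 called 1, mRpL17, and limma voom 0. Fits with the replicate number as a block, given with the processing below, called mRpS14. With equal number and dsRNA taken as 1 lysate, mRpL37 was called too. The median of the members was -0.16 with 17 (24.3%) above 0, against a median of -0.00 and 49.5% above 0 for all genes. It ran from -0.24 to -0.06 when 1 library was left out, the latter without polysome GFP replicate 1 and the former without polysome GFP replicate 3. Without both polysome libraries that stand apart it was -0.03, with 31 members above 0. In 35 members the porthos change was above 0 in input and below 0 on polysomes, in 21 above 0 in both, in 11 below 0 in both and in 3 below 0 in input and above 0 on polysomes.

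In the fit without a block mRpS14 came closest to the threshold. Its porthos libraries were all above the GFP libraries in input, at 18.3, 17.0 and 14.8 against 13.7, 12.6 and 11.6 CPM, and all below them on polysomes, and the difference was -1.06 ± 0.23 (adjusted p = 0.052). mRpL17, a neighbour of the exit tunnel, had 31.8, 31.7 and 33.5 CPM in the GFP inputs and 36.6, 40.6 and 38.9 CPM in the porthos inputs. On polysomes it had 67.8, 57.3 and 55.1 and 54.3, 53.5 and 46.0 CPM. The groups were apart in opposite directions, with a difference of -0.49 ± 0.14 (adjusted p = 0.10). mRpS24, mRpL52 and mRpL34 had differences of -1.37 ± 0.40, -0.52 ± 0.16 and -0.92 ± 0.29 (adjusted p = 0.12, 0.12 and 0.13). On the other side mRpL37 was at 0.45 ± 0.14 (adjusted p = 0.12), and mRpL3, mRpS30, mRpS9 and mRpL45 at 0.39, 0.21, 0.22 and 0.23. Without polysome porthos replicate 2 there were 7 calls, 1 higher and 6 lower. With the length trend removed the median of the members was -0.00.

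The summed large subunit transcripts were 1.73 to 1.91 times the summed small subunit transcripts over all 12 libraries. The large subunit members summed to 1562 ± 22.5 CPM (SD, n = 3) in the GFP inputs and the small subunit members to 876 ± 9.50. In the porthos inputs the sums were 1630 ± 44.7 and 929 ± 11.5. They were 2460 ± 224 and 1324 ± 109 in the GFP polysomes, and 2354 ± 124 and 1267 ± 39.4 in the porthos polysomes. The small subunit sums of the 3 input porthos libraries, 916 to 936 CPM, lay above those of the GFP libraries, 865 to 884 CPM. The large subunit sums overlapped in input. Input sums were apart in the same way for cytoplasmic ribosomal proteins and nuclear subunits of oxidative phosphorylation. So were those of the mitochondrial translation factors, synthetases and DNA and RNA maintenance genes described below, while that of tko and bonsai overlapped. On polysomes the sums of both subunits overlapped between the dsRNA treatments.

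The log2 ratio of the large to the small subunit sum was 0.853, 0.822 and 0.831 in the GFP inputs and 0.811, 0.832 and 0.787 in the porthos inputs. It was 0.906, 0.900 and 0.874 in the GFP polysomes and 0.931, 0.913 and 0.835 in the porthos polysomes. The ratio of all polysome libraries was therefore above that of all input libraries of the same dsRNA. These ratios count mRpS30 and mRpS18A with the small subunit, by their symbols. Their means with GFP dsRNA were 94.7 and 30.6 CPM in input and 82.1 and 59.4 CPM on polysomes. The ratio was not taken with both in the large subunit, so its direction between fractions is shown only for the split by symbol. The porthos minus GFP difference of the mean ratio was -0.025 in input, with a pooled SD of 0.020 between libraries, and -0.00 on polysomes, with a pooled SD of 0.038. The polysome minus input difference was 0.058 with GFP dsRNA (pooled SD 0.016) and 0.083 with porthos dsRNA (pooled SD 0.040). With every member weighted equally, as a mean over members of log2(CPM + 0.5), the polysome minus input difference turned to -0.017 with GFP dsRNA and was 0.070 with porthos dsRNA. By calls, 41 of 46 large and 19 of 24 small subunit members were higher on polysomes with GFP dsRNA, with medians of 0.73 and 0.84, and 44 and 17 with porthos dsRNA, with medians of 0.56 and 0.54. No test was run on the sums or on the difference between the subunits.

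**Figure D5:**
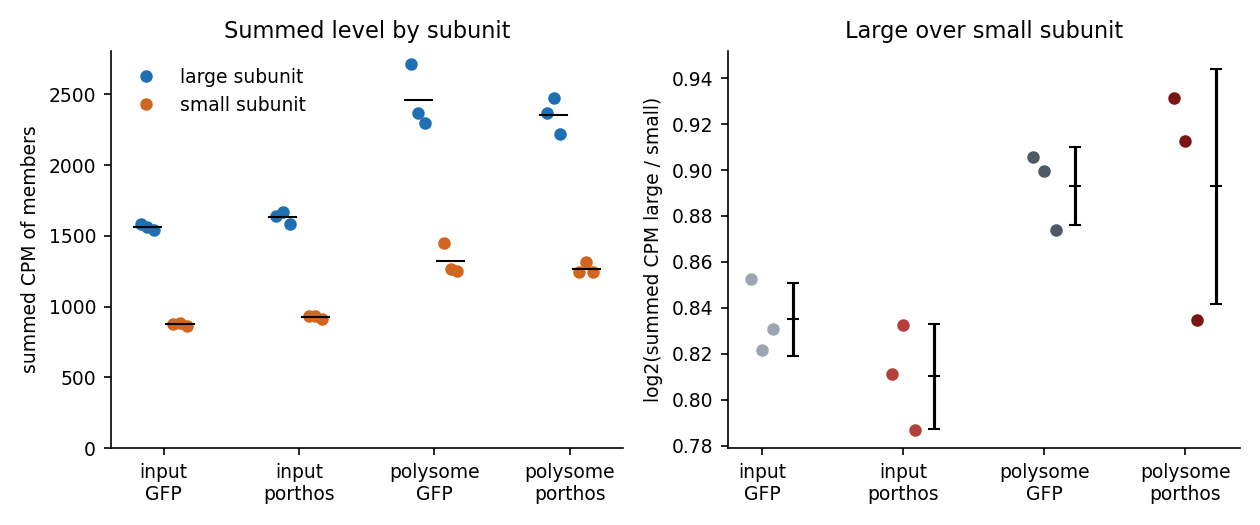
Left, summed CPM of the large (blue) and small (orange) subunit members in each library, with a bar at each group's mean. Right, log2 ratio of the large to the small subunit sum, a point per library with the group mean ± SD beside it, on an axis that does not start at 0. The sums are about 2460 against 1562 CPM for the large subunit on polysomes and in the GFP inputs, while the ratio stays between 0.787 and 0.931.

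A further pair of mitoribosomal proteins carries other names: tko, the small subunit homologue of bacterial S12, and bonsai, that of S15. Both rose on polysomes, tko from 45.6, 44.2 and 53.1 CPM in input to 102, 94.3 and 81.6 CPM with GFP dsRNA and bonsai from 54.1, 53.0 and 56.4 to 103, 91.9 and 84.1 CPM. The log2 changes were 0.96 ± 0.09 and 0.77 ± 0.10 with GFP dsRNA (adjusted p = 7.7e-09 and 3.9e-07) and 0.86 ± 0.09 and 0.65 ± 0.10 with porthos dsRNA. Between dsRNA treatments both missed the threshold in input and on polysomes.

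Factors that work with the mitochondrial ribosome went both ways between fractions. Of 8 tested mitochondrial translation factors 3 were higher and 2 lower on polysomes with GFP dsRNA. The shares of all genes called there were 26.5% and 28.9%. On polysomes porthos dsRNA raised 2 and lowered 0, against 11.2% and 7.14% of all genes. mEFG1, the translocase, had 18.0, 18.4 and 22.6 CPM with GFP dsRNA and 34.0, 30.9 and 35.2 CPM with porthos dsRNA on polysomes, without overlap, a change of 0.77 ± 0.12 (adjusted p = 8.4e-05). mEFTu1, which delivers aminoacyl-tRNA, had 139, 162 and 157 and 241, 216 and 202 CPM, also apart, a change of 0.53 ± 0.09 (adjusted p = 3.0e-04). In input their changes were 0.34 ± 0.10 and 0.29 ± 0.09 and missed the threshold (adjusted p = 0.11 and 0.11), as did that of mRRF1, the recycling factor, at 0.17 ± 0.16. mEFTu2 was at -0.29 ± 0.12 on polysomes (adjusted p = 0.093).

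Of 17 mitochondrial aminoacyl-tRNA synthetases and related subunits, which charge the tRNAs, 2 were higher and 6 lower on polysomes with GFP dsRNA. Their median was -0.18, and the shares of all genes called higher and lower there were 26.5% and 28.9%. With porthos dsRNA LeuRS-m and MetRS-m rose on polysomes by 0.40 ± 0.08 and 0.45 ± 0.14 (adjusted p = 7.4e-04 and 0.023), and SerRS-m changed by -0.39 ± 0.11 (adjusted p = 0.016). In input 0 of the 17 passed and 0 had an unadjusted p under 0.05. With porthos dsRNA 11.2% of all genes were called higher on polysomes and 7.14% lower. Of 13 genes that maintain and process mitochondrial DNA and RNA, 4 rose and 2 fell in that comparison. Among them were PNPase, an exoribonuclease, at 0.57 ± 0.10, rswl at 0.55 ± 0.10, the helicase Suv3 at 0.39 ± 0.09, the poly(A) polymerase MTPAP at -0.38 ± 0.12 and the replicative mtDNA-helicase at -0.39 ± 0.11. These lists hold longer transcripts, with median exon lengths of 1618.5 bases for the factors and 2477 for the synthetases.

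Cytoplasmic ribosomal proteins and nuclear subunits of oxidative phosphorylation gave a scale for these counts. Of 80 cytoplasmic ribosomal protein genes, with a median exon length of 921.5 bases, 28 were higher and 5 lower on polysomes with GFP dsRNA, at a median of 0.16. Of 72 nuclear subunits, with a median of 848.5 bases, 61 were higher and 5 lower, at a median of 1.00. On polysomes porthos dsRNA raised 0 and lowered 6 of the former, and raised 5 and lowered 15 of the latter, with medians of -0.07 and -0.18. In input the medians of both lists were 0.14 and 0.09, with 3 and 0 genes higher and 0 lower. No test of the members against these lists was run.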

How the data were processed

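The authors deposited whole-number read counts per FlyBase gene for each of 12 libraries, 3 in each of 4 groups. Per the submitters' processing notes, HISAT2 2.1.0, featureCounts 1.4.6 and genome build dm6 were used. The sources used here do not give the strand setting, the annotation release or the handling of multiply mapped reads. Per the labels' protocols, RNA was poly(A)-selected and the kit was directional. Names, exon lengths and coordinates came from an Ensembl annotation (release 115) of the same assembly.

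TMM scaling (edgeR 4.0.16 under R 4.3.3) turned the deposited counts into CPM, and genes were kept by filterByExpr. All 12 libraries entered 1 quasi-likelihood fit with a term per group and 5 contrasts. Genes were called at a Benjamini-Hochberg adjusted p under 0.05 over all 9024 genes. Changes are log2 ± SE, with the SE taken as |change| over √F. CPM errors are SD, and floors of 3 counts cover counting error only. Levels per kilobase are CPM over summed exon length. Replicates differed by more than counting noise (chi-square per degree of freedom at least 2.30). The code of the edgeR, limma voom, DESeq2 and length-adjusted fits was tested on simulated data with known changes, which is a check of the code and not of the calls.

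Alternatives were RLE and library size scaling, DESeq2 1.42.0, limma voom 3.58.1, other filters, fits of the compared groups alone, replicate blocks, removal of the length trend (lowess, span 0.5), and leaving out libraries. The length trend was fitted to log2 CPM deviations in each library and entered the fit as an offset. Genes without a known length were not adjusted. The members, lists and tests were chosen with earlier results of these data known. Members named are the 5 with the smallest p per direction in each porthos contrast, all called ones, the 5 largest and 5 smallest changes from input to polysome, the 5 highest and lowest levels, and up to 3 genes per pathway list and contrast; TBC1d7, Naa15-16, ArgRS-m, CG8870, CG10602 and CG33155 were added as overlapping genes. No sequences are printed.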

Additional observations from a re-analysis of the deposited data

Results flagged for a closer look

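In 3 members the 3 porthos libraries were all above the GFP libraries in input and all below them on polysomes. Of all genes tested, 12.9% were apart higher in input and 13.4% apart lower on polysomes. The share that was apart in both ways was not counted. The differences of the log2 changes were -1.06 ± 0.23 for mRpS14, -0.52 ± 0.16 for mRpL52 and -0.49 ± 0.14 for mRpL17. The interaction test of edgeR gave adjusted p-values of 0.052, 0.12 and 0.10, so none of the 3 passed over all genes tested in the fit without a block. For mRpL52 the input values were 25.04, 24.4 and 27.0 CPM with GFP dsRNA and 27.0, 27.3 and 30.5 CPM with porthos dsRNA, a gap of less than 0.1 CPM between the closest libraries. Over the alternatives, mRpS14 was called in 6 of 21, both fits with a replicate block among them, with changes between -1.27 and -0.82, and mRpL17 and mRpL52 in 3 of 22 each. mRpS14 also shares exon bases with genes on both strands.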

How the results depend on the processing

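In input the 0 calls became 2 in the fit of the compared groups and 1 without both polysome libraries that stand apart, and 0 without any single library. On polysomes the 11 calls became 17 with library size scaling, 19 without the filter, 4 in the fit of the compared groups, 3 without both libraries, and 3 to 19 when 1 library was left out; 10 were called with the length trend removed, 8 higher and 2 lower, of which 7 were among the 11. The 0 calls of the difference became 1 with library size scaling, 1 with DESeq2, 6 without the filter, 1 with the replicate block (mRpS14, adjusted p = 0.018 by edgeR), 2 with equal number and dsRNA taken as 1 lysate, the lysate replicate block (mRpS14 and mRpL37, adjusted p = 0.0057 and 0.049), and 0 to 7 with 1 library left out. Polysome against input gave 59 to 61 calls with GFP and 54 to 63 with porthos dsRNA when 1 library was left out, but 23 and 8 with the length trend removed. With that removal mRpL45 turned from 0.01 to -0.31 with GFP dsRNA. Large over small subunit differences ran from -0.036 to -0.013 in input, -0.019 to 0.029 on polysomes, 0.051 to 0.068 and 0.064 to 0.112 between fractions with 1 library left out. As a mean of log2 CPM they were 0.049 on polysomes and -0.017 between fractions with GFP dsRNA.

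The labels do not say what a shared replicate number marks. Not every equal-numbered pair had a correlation of deviations over 0.1 (-0.02 to 0.14), so the numbers were not taken to pair the libraries. That range includes pairs across dsRNAs, which cannot come from 1 lysate. An input share of 20% is given for every library, so input and polysomes of the same dsRNA can come from 1 lysate. As a hint from the data, between fractions of the same dsRNA the 6 equal-numbered pairs ran from 0.034 to 0.136 and the 12 others from -0.085 to 0.018, and 12 of 12 libraries correlated best with their own number. The replicate block gave 13 polysome calls, 5 higher and 8 lower, 0 in input, and 61 and 62 between fractions. Of the values of named members under the alternatives, 1032 kept their direction and side of the threshold, 60 lost it, 24 gained it, 22 moved and 1 reversed. The cause of these shifts was not tested. Members with few counts, such as mRpS24 with 19 to 92 per library, have wide errors.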

Other observations

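The transcripts that the mitochondrial ribosome itself reads could not be followed. All 13 protein-coding mRNAs of the mitochondrial genome and both mitochondrial rRNAs were listed at 0 in all 12 libraries, so the nuclear part of the ribosome was measured without its RNAs or products.

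Whether a gene was listed at 0 went with overlap on the opposite strand. Of 72 protein-coding genes with at least 99% of their exon length under exons of the opposite strand, 59 (81.9%) were at 0 in every library, against 1035 of 8991 (11.5%) without such overlap. Among the members, mRpS24 and mRpS21, with 55.3% and 48.0% of their exon length covered, were the lowest of the tested members per kilobase of all exon, at 8.63 and 18.5 CPM. With all their counts set over the unshared exon length they had 19.3 and 35.5 CPM per kilobase and ranked 69 and 54 of 70. mRpS21 had 5.18, 5.38 and 7.10 CPM in input and 15.2, 12.1 and 11.1 CPM on polysomes with GFP dsRNA, while CG8870, the gene opposite, had group means of 0.847 and 0.936 CPM.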
